A study of Mus musculus with 12 samples.

Results

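The genes described here are 9 mouse genes that carry retinoids, make retinoic acid or break it down: Stra6, Rdh10, Dhrs3, Aldh1a2, Aldh1a3, Crabp1, Crabp2, Cyp26a1 and Cyp26b1. They were chosen by name for these roles, and they are 9 of the 55401 genes in the count tables. RNA from mouse totipotent potential stem (TPS) cells and extended pluripotent stem (EPS) cells was sequenced as poly(A)-selected paired-end libraries. Each group had 3 lines, and each line had 2 technical replicate libraries, giving 12 libraries. TPS cells were grown on feeder cells in the medium that the labels name VCED, described in the study's methods as CD1530 (an agonist of the retinoic acid receptor RARγ), valproic acid (an inhibitor of histone deacetylases), EPZ004777 (an inhibitor of the histone methyltransferase DOT1L) and CHIR-99021 (an inhibitor of the kinase GSK3). EPS cells were grown on feeder cells in LCDM medium, which by its published make-up also holds CHIR-99021 but no RARγ agonist. The study made TPS cells from EPS cells, from embryonic stem cells and from embryos of the 2-cell stage, and the labels do not say which origin the 3 TPS lines had, nor whether the lines of a group were derived separately, so the p-values measure the spread between these lines only. Because the cocktail holds a receptor agonist and the media differ in several agents at once, the effect of any single agent cannot be told apart.

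Retinol, the circulating form of vitamin A, enters some cells through the membrane receptor STRA6. Inside the cell RDH10 oxidises retinol to retinaldehyde, DHRS3 reduces retinaldehyde back to retinol, and the retinaldehyde dehydrogenases of the ALDH1A family oxidise it irreversibly to retinoic acid. Retinoic acid is bound in the cytoplasm by CRABP1 and CRABP2, acts in the nucleus through RAR and RXR receptor pairs, and is inactivated by the CYP26 hydroxylases. Cyp26a1, Stra6 and Dhrs3 are known retinoic acid responsive genes in embryonic cells, which is the background to comparing them between cells grown with and without an RAR agonist.

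Libraries held 13676051 to 21821707 counted reads, and counts were summed per line to 29877215 to 38466294. All 9 genes passed the filter on low counts. Levels are given as counts per 1000000 (CPM), scaled by the trimmed mean of M-values (TMM), for lines 1, 2 and 3 of each group. Differences are log2 fold changes of TPS over EPS lines from edgeR's quasi-likelihood test with Benjamini-Hochberg adjustment over the 17468 genes tested, called at an adjusted p under 0.05.

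Of the 9 genes, 4 were higher in TPS lines (Stra6, Cyp26a1, Cyp26b1 and Dhrs3), 0 were lower and 5 were not called. At an unadjusted p under 0.05, 6 were higher and 0 lower, against 21.8% and 15.2% of all genes. DESeq2 called 5 higher and limma-voom 3, with 0 lower by either tool, against 16.0% higher and 7.71% lower of all genes by DESeq2 and 13.9% and 7.13% by limma-voom. Over all genes tested, 14.4% were called higher and 7.34% lower. The median log2 fold change of the 9 genes was 1.27, against -0.00 for all genes tested, and 8 of the 9 values were above 0, as were 49.8% of all values. In 5 of the 9 genes every TPS line was above every EPS line, which held for 23.6% of all genes tested, and in 0 was every TPS line below every EPS line, against 19.1% of all genes.

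**Figure D1:**
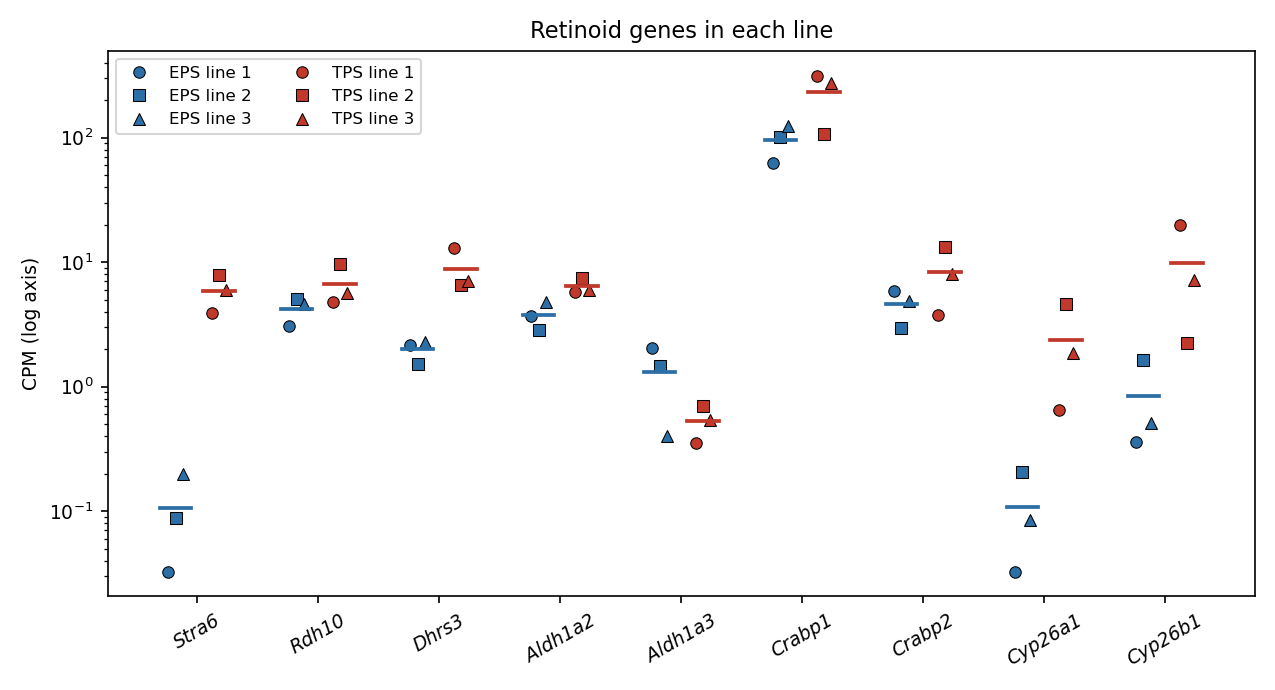
Level of each of the 9 genes in each line, in CPM on a log axis, with a symbol for each line and a horizontal bar for each group mean (TPS red, EPS blue). All 3 TPS points lie above all 3 EPS points for Stra6, Dhrs3, Aldh1a2, Cyp26a1 and Cyp26b1, and the groups overlap for the other 4 genes.

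The retinol receptor gene Stra6 (ENSMUSG00000032327.14; GRCm38 chr9:58063788-58153996, plus strand) was at 3.92, 7.85 and 5.94 CPM in TPS lines and at 0.0326, 0.0883 and 0.199 CPM in EPS lines. It was thus measured well in every TPS line and hardly at all in any EPS line. The counts behind these levels were 157, 303 and 187 in TPS lines and 1, 3 and 7 in EPS lines, so the EPS level rests on 11 reads. Stra6 rose by a log2 fold change of 5.72 (SE 0.609, adjusted p = 0.00222, n = 3 lines in each group, edgeR), and 98.2% of the genes tested had a smaller value. Without EPS line 3, which held 7 of the 11 EPS reads, the value was 6.49. The ratio of summed counts, corrected for depth, was 53.3, with a 95% counting interval of 29.6 to 107 that covers counting error only. The gene Ccdc33 overlaps Stra6 on the other strand and held 20 counts over all lines.

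Rdh10 (ENSMUSG00000025921.7; chr1:16105774-16133734, plus strand), which encodes the main retinol dehydrogenase of the embryo, was at 4.77, 9.72 and 5.59 CPM in TPS lines and at 3.04, 5.03 and 4.58 CPM in EPS lines. The groups overlapped, since TPS line 1 lay below EPS line 2. Its log2 fold change of 0.67 (SE 0.364) did not pass the test (adjusted p = 0.225).

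Dhrs3 (ENSMUSG00000066026.14; chr4:144892827-144928209, plus strand), whose product runs the opposite reaction, was at 12.9, 6.53 and 7.02 CPM in TPS lines and at 2.15, 1.53 and 2.28 CPM in EPS lines. Every TPS line was above every EPS line, with line 1 standing highest. Dhrs3 rose by a log2 fold change of 2.15 (SE 0.369, adjusted p = 0.00848, edgeR), from 1.99 ± 0.400 to 8.83 ± 3.57 CPM (SD, n = 3).

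Both genes of retinaldehyde dehydrogenases among the 9 failed the test, with estimates of opposite sign. Aldh1a2 (ENSMUSG00000013584.5; chr9:71215789-71296243, plus strand), the main retinoic acid synthesising enzyme of the early embryo, was at 5.75, 7.46 and 6.01 CPM in TPS lines and at 3.69, 2.83 and 4.81 CPM in EPS lines. These values did not overlap, yet the log2 fold change of 0.76 (SE 0.300) had an adjusted p of 0.108. Aldh1a3 (ENSMUSG00000015134.15; chr7:66390890-66427517, minus strand) was at 0.350, 0.700 and 0.540 CPM in TPS lines and at 2.02, 1.47 and 0.398 CPM in EPS lines. EPS line 3 lay among the TPS lines, away from the other two EPS lines. Its log2 fold change was -1.28 (SE 0.620, adjusted p = 0.174), the only value below 0 among the 9 genes.

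Crabp1 (ENSMUSG00000032291.8; chr9:54764748-54773110, plus strand), the gene of a binding protein that holds retinoic acid in the cytoplasm, was at 315, 107 and 273 CPM in TPS lines and at 62.4, 100.3 and 125 CPM in EPS lines. TPS line 2 lay between the EPS lines, while TPS lines 1 and 3 lay above all of them. The log2 fold change of 1.27 (SE 0.409) narrowly missed the threshold (adjusted p = 0.0620), and the call turned on 1 line: without TPS line 2 the value was 1.61 with an adjusted p of 0.0156, while with any other line left out it was 0.99 to 1.49 with adjusted p-values of 0.0738 to 0.173. Crabp2 (ENSMUSG00000004885.5; chr3:87948666-87953376, plus strand), whose product carries retinoic acid to the nuclear receptors, was at 3.77, 13.3 and 8.04 CPM in TPS lines and at 5.88, 2.97 and 4.90 CPM in EPS lines. The groups overlapped at TPS line 1, and the log2 fold change of 0.87 (SE 0.480) did not pass the test (adjusted p = 0.229).

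Both genes of retinoic acid hydroxylases among the 9 were higher in TPS lines, with a different line the highest for each. Cyp26a1 (ENSMUSG00000024987.6; chr19:37697798-37701536, plus strand) was at 0.650, 4.59 and 1.87 CPM in TPS lines and at 0.0326, 0.206 and 0.0854 CPM in EPS lines. No TPS line reached the EPS range, but TPS line 2 stood 7.06-fold above TPS line 1. Its counts were 26, 177 and 59 against 1, 7 and 3, a depth-corrected ratio of 21.6 with a 95% counting interval of 11.9 to 43.8. Cyp26a1 rose by a log2 fold change of 4.39 (SE 0.905, adjusted p = 0.0150, edgeR), and without EPS line 1 the value was 3.97 with an adjusted p of 0.0502. Without TPS line 2 it was 3.48 and without EPS line 2 it was 5.20, both past the threshold.

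Cyp26b1 (ENSMUSG00000063415.12; chr6:84571414-84593908, minus strand) was at 19.99, 2.25 and 7.15 CPM in TPS lines and at 0.359, 1.65 and 0.512 CPM in EPS lines. The groups did not overlap, but TPS line 2 lay close to EPS line 2, and TPS line 1 stood 8.87-fold above TPS line 2. Cyp26b1 rose by a log2 fold change of 3.54 (SE 0.900, adjusted p = 0.0301, edgeR). That call depended on single lines: the value was 2.47 (adjusted p = 0.0805) without TPS line 1, 3.71 (0.0576) without TPS line 3, 3.15 (0.0870) without EPS line 1 and 3.25 (0.0816) without EPS line 3. Without EPS line 2 it was 4.45 (0.0409). With all lines, the call was lost with limma-voom (3.31, adjusted p = 0.0689) and with the line number as a replicate block in edgeR (3.34, 0.105). It was kept with DESeq2 (3.52, 0.00415).

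**Figure D2:**
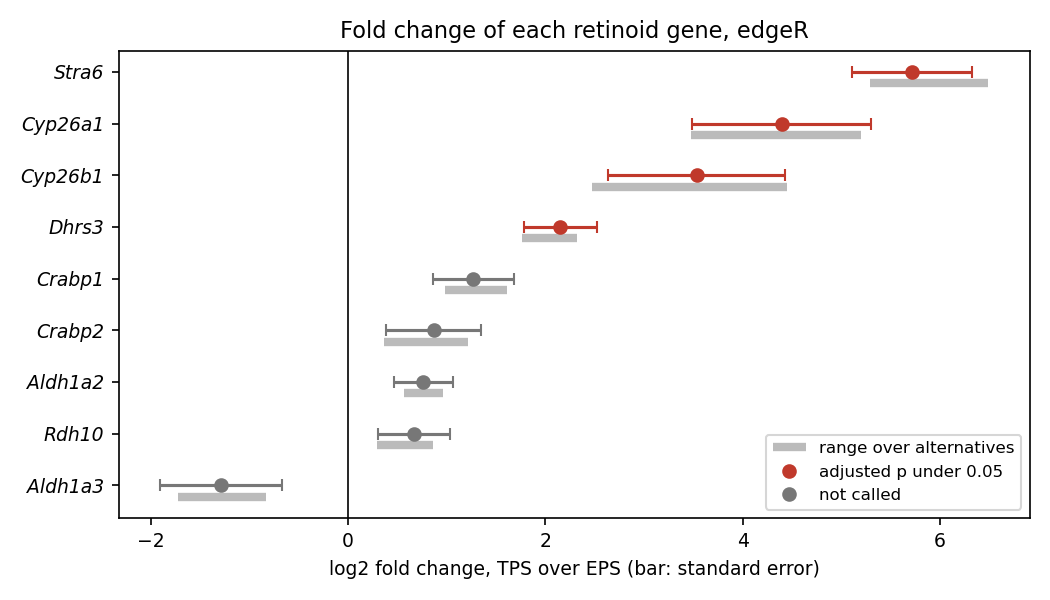
Log2 fold change of TPS over EPS lines for each gene, with bars of 1 standard error and grey bars for the range over the alternative settings. Stra6 at 5.72, Cyp26a1 at 4.39, Cyp26b1 at 3.54 and Dhrs3 at 2.15 passed the test, and Aldh1a3 at -1.28 was the lowest value.

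Promoter sequences of these genes were read beside the values. Windows from 250 bases before to 50 bases after the annotated start were taken from RefSeq (GRCm38.p6) and matched 6 of the 9 genes with 11 windows. Each window was searched, after the values of the genes had been seen, on both strands for pairs in direct repeat of hexamers that were AGGTCA, the usual core of their sites, or one of its variants AGTTCA (as in many RAR elements), GGGTCA (found in others) and GGTTCA (the remaining variant searched), separated by 1 (DR1), 2 (DR2) or 5 (DR5) bases, the spacings known from RAR and RXR binding elements. The searched hexamers overlap with those of other nuclear receptors. Of all 32851 windows, 0.222% held a DR1, 0.268% a DR2 and 0.0974% a DR5. Among the 9 genes only the Cyp26a1 window held a match, a DR5 of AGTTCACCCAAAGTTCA on the strand opposite to the gene at chr19:37697776-37697792, 16 to 32 bases before the RefSeq start. That start lies 10 bases inside the GENCODE start given above, from which the repeat is 6 to 22 bases away. It is shown because Cyp26a1 was among the genes that rose, with the plus strand of chr19:37697688-37697807 printed and the repeat in capitals.
Cyp26a1: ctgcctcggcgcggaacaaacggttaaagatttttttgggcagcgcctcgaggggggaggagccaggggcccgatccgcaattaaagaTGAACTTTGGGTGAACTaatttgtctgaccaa
The match is a description of letters and not a measured binding site, and windows without a match say only that these letters are not in them.

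The 3 TPS lines fell into opposite orders for different genes. Dhrs3, Crabp1 and Cyp26b1 were highest in TPS line 1 and lowest in TPS line 2. The other 6 genes, Stra6, Rdh10, Aldh1a2, Aldh1a3, Crabp2 and Cyp26a1, were highest in TPS line 2 and lowest in TPS line 1. For Aldh1a2 and Aldh1a3 the range of the TPS lines was small, at 0.327 and 0.332 in log2(CPM + 1). The largest gap between technical replicates of any of the 6 lines was 0.390 and 0.588 for these genes. Their order of lines is thus not clear of technical spread. The highest TPS line exceeded the lowest by 8.87-fold for Cyp26b1, 7.06-fold for Cyp26a1, 3.52-fold for Crabp2 and 2.93-fold for Crabp1. For Rdh10, Stra6, Aldh1a3, Dhrs3 and Aldh1a2 it did so by 1.30-fold to 2.04-fold. Among EPS lines that fold was highest for Cyp26a1 (6.31), Stra6 (6.10), Aldh1a3 (5.08) and Cyp26b1 (4.59), of which Cyp26a1 and Stra6 rest on few reads there. Summed marker levels also differed between the TPS lines: those of fibroblasts were 6142, 3440 and 3565 CPM, highest in line 1 and lowest in line 2, and those of trophectoderm were 144, 602 and 219 CPM, with the peak in line 2 carried by the keratin genes Krt8 and Krt18. Their part in the orders of the 9 genes was not tested.

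**Figure D3:**
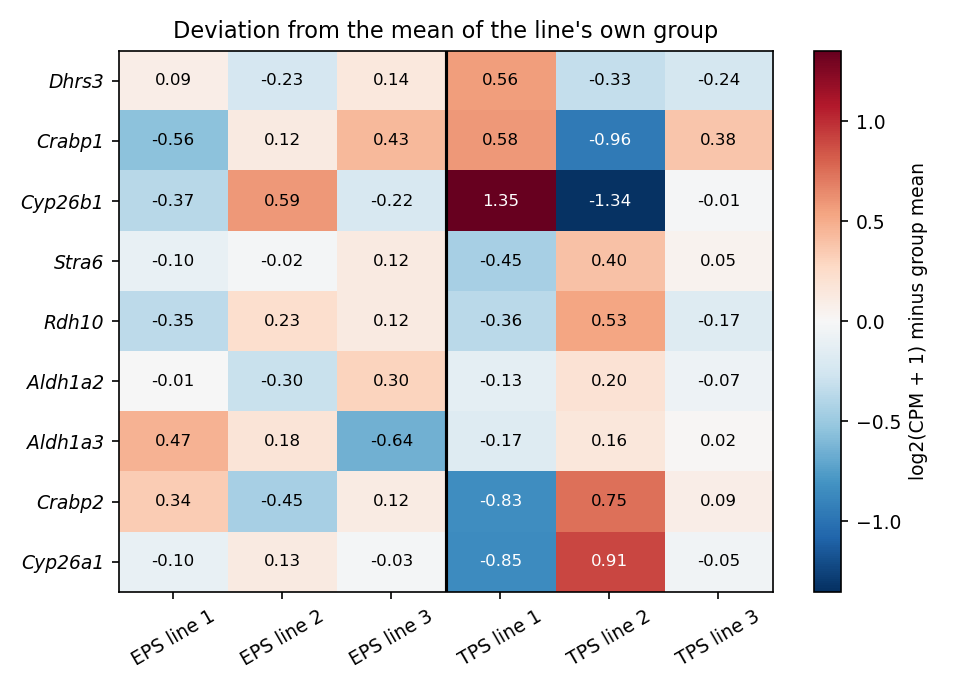
Heat map of each line's deviation from the mean of its own group, in log2(CPM + 1), for each gene. In TPS line 1 Dhrs3, Crabp1 and Cyp26b1 lie highest and the other 6 genes lowest, and in TPS line 2 the order is turned.

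Levels of different genes were compared as CPM per kilobase of exon, which takes out gene length. On that scale Crabp1 made up 94.2% of the summed level of the 9 genes in TPS lines and 94.2% in EPS lines, at 289 ± 137 and 119.5 ± 39.2 CPM per kilobase (SD, n = 3). Crabp2 followed by mean level in both groups, at 6.33 ± 3.61 and 3.47 ± 1.12 CPM per kilobase. In TPS lines it overlapped with Dhrs3, the next gene, and in TPS line 1 it lay lower (2.85 against 4.42). In EPS lines it did not overlap with the next gene. Below it the TPS order was Dhrs3, Aldh1a2, Cyp26b1, Rdh10, Cyp26a1, Stra6 and Aldh1a3, in which only the last pair of neighbours had lines that did not overlap. The EPS order below Crabp2 was Aldh1a2, Rdh10, Dhrs3, Aldh1a3, Cyp26b1, Cyp26a1 and Stra6. Rdh10 and Dhrs3 overlapped there, as did each pair of neighbours from Aldh1a3 down. Stra6 was thus the lowest of the 9 genes in EPS lines, at 0.0183 CPM per kilobase, and was at 1.01 CPM per kilobase in TPS lines.

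**Figure D4:**
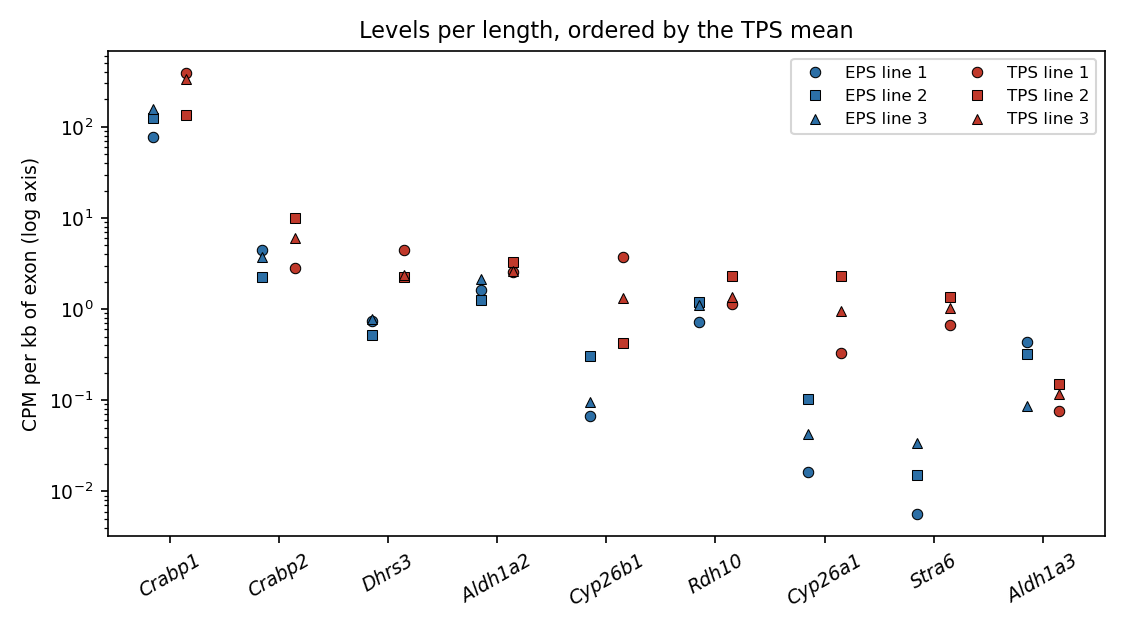
Level of each gene as CPM per kilobase of exon on a log axis, by line and group. Crabp1 lies far above the rest in both groups, and Stra6 moves from the lowest place in EPS lines to above Aldh1a3 in TPS lines.

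Ratios within a line were compared for 4 pairs of genes with paired roles, as log2 ratios of levels per length after adding 0.5 counts. Rdh10 over Dhrs3, the oxidising over the reducing enzyme, was -0.90 ± 1.01 in TPS lines and 0.56 ± 0.611 in EPS lines (SD, n = 3; two-sided exact permutation test p = 0.2). Aldh1a2 over Aldh1a3 was 4.63 ± 0.334 against 2.81 ± 1.53 (exact p = 0.3), and Crabp1 over Crabp2 was 5.54 ± 1.70 against 5.10 ± 0.869 (exact p = 0.7). Cyp26a1 over Cyp26b1 was -3.48, 2.45 and -0.49 in TPS lines, so that Cyp26a1 was the higher of both only in TPS line 2 of that group, against a mean of -1.32 ± 0.303 in EPS lines (exact p = 0.7). Adjusted over the 4 ratios the p-values were 0.6 to 0.7, the smallest p that 3 lines against 3 allow is 0.1, and all 4 ratios overlapped between groups. The sign of 2 of the differences rested on single lines: Crabp1 over Crabp2 differed by 0.44 with all lines, by -0.33 without TPS line 1 and by -0.05 without EPS line 1, and Cyp26a1 over Cyp26b1 by 0.81 with all lines, by 2.30 without TPS line 1 and by -0.67 without TPS line 2. The difference in Aldh1a2 over Aldh1a3 was 1.83 with all lines, 2.71 without EPS line 3 and 1.37 without EPS line 1, and that in Rdh10 over Dhrs3 was -1.47 with all lines and -0.95 without TPS line 1.

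The remaining genes of the pathway were taken from lists by role, 37 genes of which 24 were tested, 6 higher and 1 lower, against 14.4% higher and 7.34% lower of all genes tested. Among 9 genes of uptake, storage and transport 4 were tested and 1 rose. Rbp4, the gene of the serum retinol carrier, was at 1.42, 4.48 and 1.68 CPM in TPS lines and at 0.163, 0.471 and 0.370 CPM in EPS lines (log2 fold change 2.90, SE 0.624, adjusted p = 0.0171). Without EPS line 1 the Rbp4 value was 2.56 with an adjusted p of 0.0514, and without TPS line 2 it was 2.19 with an adjusted p of 0.0377.

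Among 17 other genes of retinol and retinaldehyde oxidoreductases 11 were tested, 0 were higher and 1 was lower by edgeR. At an unadjusted p under 0.05, 2 were higher and 4 lower, DESeq2 called 2 higher and 3 lower, and limma-voom 0 and 1. The shares of all genes were 21.8% and 15.2% at an unadjusted p, 16.0% and 7.71% by DESeq2 and 13.9% and 7.13% by limma-voom. Rdh11 fell by 1.08 on the log2 scale (SE 0.297, adjusted p = 0.0390, edgeR), from 50.5, 79.3 and 41.8 CPM in EPS lines to 28.9, 33.7 and 18.7 CPM in TPS lines. The Rdh11 call was lost without TPS line 1 (value -1.13, adjusted p = 0.0860), TPS line 3 (-0.87, 0.103), EPS line 1 (-1.18, 0.0622) or EPS line 2 (-0.79, 0.0903). By mean level over all 6 lines, the 3 highest oxidoreductase genes that were not called were Adh5, Dhrs7 and Dhrs4, with log2 fold changes of -0.46, -0.88 and -0.63. Dhrs9, a retinol dehydrogenase gene named after its values were seen, was at 7.20, 2.10 and 6.51 CPM in TPS lines and at 0.490, 1.03 and 2.62 CPM in EPS lines, which overlapped (log2 fold change 1.93, SE 0.690, adjusted p = 0.0839).

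Of the 3 other aldehyde dehydrogenase genes listed, both tested ones rose. Whether their products act on retinaldehyde was not measured. Aldh1a1 was at 5.70, 1.27 and 4.10 CPM in TPS lines and at 0.0653, 0.0589 and 0.114 CPM in EPS lines (adjusted p = 0.00376, edgeR), at least 15.4-fold higher against a floor of 3 counts per library. Aldh1a7 was at 0.949, 0.570 and 1.02 against 0.0979, 0.0294 and 0.171 CPM (log2 fold change 3.03, SE 0.610, adjusted p = 0.0139), and its value was 3.67 without EPS line 3. Each Aldh1a1 line in TPS was above each EPS line, with TPS line 2 the lowest of its group. Of the other binding and breakdown genes the hydroxylase gene Cyp26c1 did not pass the filter, at 0.0250, 0.233 and 0.0953 CPM in TPS lines and 0.0326, 0.177 and 0.199 CPM in EPS lines, which overlapped. Fabp5, a fatty acid binding protein gene whose product can also bind retinoic acid, was tested and not called by edgeR (1.21, SE 0.451, adjusted p = 0.0940). Its level was 172, 56.5 and 52.1 CPM in TPS lines and 46.3, 42.5 and 32.8 CPM in EPS lines, and without TPS line 1 its value was 0.42 (adjusted p = 0.196).

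Of the 6 nuclear receptor genes 3 rose. Rarg, the gene of the receptor that CD1530 activates, was at 116, 87.8 and 190 (189.6) CPM in TPS lines and at 30.4, 37.4 and 42.0 CPM in EPS lines (log2 fold change 1.84, SE 0.287, adjusted p = 0.00635). Rarb was at 0.999, 1.09 and 0.922 CPM in TPS lines with 0 counts in every EPS library, at least 4.19-fold higher against 3 counts per library (adjusted p = 0.00368, edgeR). Rxra rose by 0.84 (SE 0.184, adjusted p = 0.0178), and its adjusted p was 0.0535 without TPS line 1, 0.0548 without EPS line 1 and 0.0605 without EPS line 2. For Rara, Rxrb and Rxrg the log2 fold changes were -0.66, -0.31 and 3.11, none past the threshold by edgeR. Rxrg held 0 counts in EPS lines 1 and 2 and 11 in EPS line 3, and it was called higher by DESeq2 (adjusted p = 0.0273), by limma-voom (0.0318) and without EPS line 3 (0.0216). That last fit sets TPS lines against 0 counts and moved the value to 8.07.

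Markers of other cell types moved with the groups. Of 16 fibroblast marker genes 11 were higher in TPS lines, and the median of their log2 fold changes was 2.07. Their summed level was 3440 to 6142 CPM in TPS lines, highest in line 1, and 332 to 1380 CPM in EPS lines, and no gene of the list was at 0. Both groups were grown on feeder cells, and the part of feeder RNA in the levels of the retinoid genes was not tested. In bulk RNA fewer cells of a type and less RNA per cell cannot be told apart. On a scale per 1000 CPM of fibroblast markers, 1 of the 9 genes was higher in every TPS line than in any EPS line, 4 were lower and 4 overlapped. The divisor was itself higher in TPS lines, so that 2.87% of all genes tested lay above and 75.8% below on this scale, and the counts of the 9 genes are a description only. Stra6 was the higher one, at 0.639, 2.28 and 1.67 CPM in TPS lines against 0.0982, 0.0680 and 0.144 CPM in EPS lines. Rdh10, Aldh1a2, Aldh1a3 and Crabp1 were the lower ones, with Crabp1 at 51.2, 31.2 and 76.5 CPM against 188, 77.2 and 90.4 CPM. The overlapping genes were Crabp2 and 3 of those called higher. Cyp26a1 was at 0.106, 1.33 and 0.526 CPM against 0.0982, 0.159 and 0.0619 CPM, with only TPS line 1 inside the EPS range. Dhrs3 was at 2.11, 1.90 and 1.97 CPM against 6.48, 1.18 and 1.65 CPM, and Cyp26b1 was at 3.25, 0.655 and 2.01 CPM against 1.08, 1.27 and 0.371 CPM. The fibroblast sum of EPS line 1 was the lowest of all lines, which raises every value of that line on this scale.

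Trophectoderm markers summed to 144, 602 and 219 CPM in TPS lines and 103 to 178 CPM in EPS lines, and 2 of the 7 tested of 8 were higher. The high sum of TPS line 2 came from Krt8 (4.85, 243 and 32.8 CPM in TPS lines) and Krt18 (8.77, 198 and 26.5 CPM). Without both the list summed to 130.3, 161 and 159.8 CPM in TPS lines and 127.5, 157 and 90.2 CPM in EPS lines, which overlapped. Primitive endoderm markers summed to 86.6 to 97.7 CPM against 131 to 194 CPM, with 3 of 8 higher and 1 lower. The lower sum came from Lama1, a laminin gene, at 30.1, 50.6 and 34.4 CPM in TPS lines and 176, 125 and 107 CPM in EPS lines, and without it the list summed to 67.6, 46.5 and 52.2 CPM against 18.8, 17.7 and 23.6 CPM. As a check of the labels, 7 of 7 genes of the 2-cell stage were higher in TPS lines, at summed levels of 172 to 219.5 CPM against 0.0589 to 0.0979 CPM, and 5 of 8 pluripotency genes were lower. The part of these markers in the retinoid gene levels was not tested.

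**Figure D5:**
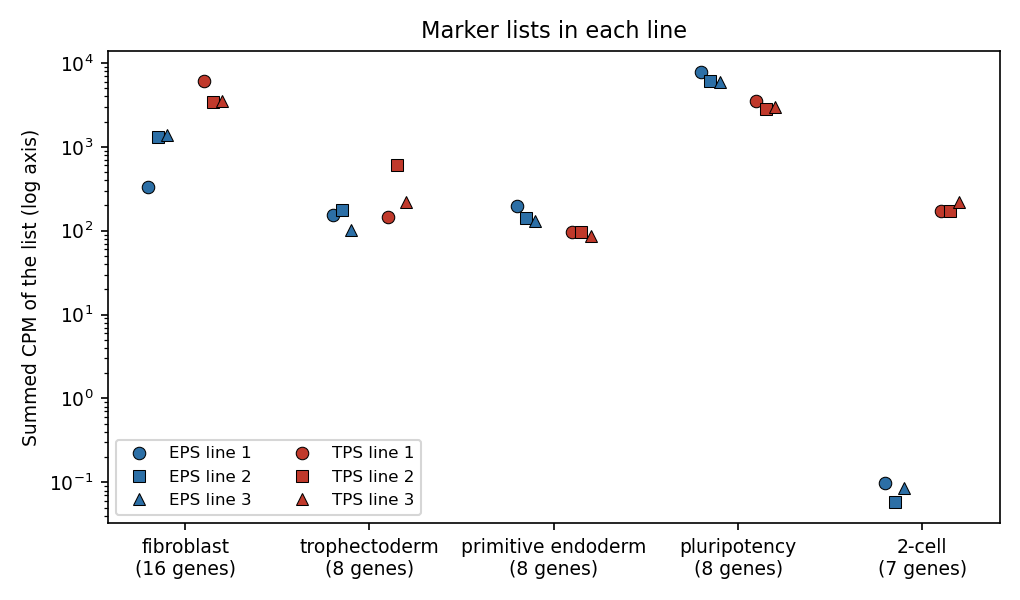
Summed level of each marker list in each line, in CPM on a log axis. Fibroblast markers lie between 3440 and 6142 in TPS lines and between 332 and 1380 in EPS lines, and trophectoderm markers reach 602 in TPS line 2.

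The genes with the pattern most like that of Cyp26a1 were ranked by Pearson's r of log2(CPM + 1) over the 6 lines, as a description over lines that share groups. Lrrc75b and Pcp4l1 came first at 0.994, followed by Cda, Cnn1 and Myh10 at 0.993. Within the 9 genes the values were 0.904 for Stra6, 0.902 for Rdh10, 0.833 for Crabp2, 0.813 for Aldh1a2 and 0.592 for Dhrs3. They were lower for Cyp26b1 (0.344), Crabp1 (0.278) and Aldh1a3 (-0.364). Among the 17229 genes ranked, Stra6 was at place 508, Rdh10 at 522, Crabp2 at 1118, Aldh1a2 at 1316 and Dhrs3 at 3702. Cyp26b1 was at 5943, Crabp1 at 6459 and Aldh1a3 at 11534. Many genes outside the 9 were thus more like Cyp26a1 than any of them.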

How the data were processed

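Total RNA of 3 TPS and 3 EPS lines was sequenced as 12 poly(A) libraries, 2 technical replicates per line. Per the labels and the study's methods, the authors trimmed reads with fastp 0.19.7, aligned them with STAR 2.7.3a to GRCm38.p6 (mm10) and deposited raw counts per gene for each library. The counting tool, its use of strand and of reads with several matches, and the annotation release are not given in the sources used here. Gene symbols, positions and exon lengths came from GENCODE M21, which matched 55141 of 55401 identifiers. No other mouse transcript was near-identical (at least 95% over at least 50% of the length) to any of the 9 genes, to Aldh1a1 or to Aldh1a7 by blastn.

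The counts of both technical replicates were added per line, since they are not separate lines. A chi-square test found them to differ by more than sampling noise, so none was taken for a library deposited 2 times. Its value per degree of freedom was 2.58 to 3.83 in 4 lines, 9.61 in EPS line 1 and 22.3 in EPS line 3. Genes were filtered with filterByExpr (minimum count 10, minimum total 15), scaled by TMM and tested with edgeR 4.0.16 (R 4.3.3), using glmQLFit and glmQLFTest, 1 coefficient for the group, and Benjamini-Hochberg adjustment at 0.05. On simulated counts of 17327 genes for this comparison, 178 of 197 genes changed by 4-fold (90.4%) and 5 unchanged genes were called. Every simulated gene had the same dispersion (spread beyond counting noise) of 0.106. The 90.4% therefore does not apply to genes with a wider spread between lines, such as Cyp26a1 and Cyp26b1. Line totals were 29877215 to 38466294 counts. A floor of 3 counts in the shallowest single library of each group was 0.195 CPM in TPS and 0.239 CPM in EPS. Exact permutation tests (scipy 1.17.1) were two-sided. Alternatives were DESeq2 1.42.0, limma-voom (limma 3.58.1), other scaling factors and filters, single libraries and technical replicates, the line number as a replicate block, a threshold of 0.01, and each line left out in turn.

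The 9 genes, the pathway lists and the marker lists were chosen with earlier results of these data known. Text values were given for all 9 genes, for every called gene of the other pathway lists with at most 3 others per list by level (Dhrs9 was added after its values were seen), and for the 5 genes most like Cyp26a1 among those with a mean of at least 10 counts per line. Of the pathway lists 1 gene is not reported here and was left out of their counts.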

Additional observations from a re-analysis of the deposited data

How the results depend on the processing

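None of the 9 genes' log2 fold changes changed sign under the alternatives run, while 2 ratios between genes did with a line left out: Crabp1 over Crabp2 ranged from -0.33 to 1.35 and Cyp26a1 over Cyp26b1 from -0.67 to 2.30. Stra6 and Dhrs3 were called under all 18 alternatives, with leave-one-out log2 fold changes of 5.29 to 6.49 and 1.77 to 2.32. Crabp2 and Aldh1a3 were called under none, and Rdh10 and Aldh1a2 were called only with 12 libraries taken as separate samples. Cyp26a1 had leave-one-out log2 fold changes of 3.48 to 5.20. Cyp26b1 had log2 fold changes of 2.47 to 4.45 and also lost its call with limma-voom (adjusted p = 0.0689). Crabp1 was called with DESeq2 (0.0105), library size alone (0.0490), no filter (0.00452), 12 libraries (0.00325) and technical replicate 1 alone (0.0413), but not with limma-voom (0.0912), a replicate block (0.118) or the other alternatives except the one without TPS line 2. Without a filter Rxrg (0.0243) and Fabp5 (0.0119) were also called, as was Fabp5 with DESeq2 (0.0254) and with 12 libraries (0.00788). Dhrs7 was called lower with DESeq2 (0.0365), no filter (0.0196), 12 libraries (0.00808) and the replicate block (0.0365). Rdh11 lost its call with library size alone (0.0624), a mean of at least 50 counts (0.0507) and technical replicate 2 alone (0.0519). Cyp26a1 gave no value with the filter on a mean of at least 50 counts or with technical replicate 1 alone, and Aldh1a3 gave none with the former. The causes were not tested.

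Of the 9 genes, 7 were higher with 12 libraries, 2 at a threshold of 0.01 and 2 to 5 with a line left out. Of the other pathway genes, 10 were higher with DESeq2, 10 with no filter and 3 at 0.01, and 4 to 8 with a line left out. Lower ones numbered 3 with DESeq2, 0 with library size alone, 3 with no filter, 0 with a mean of at least 50 counts, 7 with 12 libraries, 0 with technical replicate 2 alone, 0 at 0.01 and 0 to 2 with a line left out. Over all genes, 2509 higher and 1282 lower of 17468 tested became 4067 and 3610 of 15512 with 12 libraries. With no filter they were 3290 and 1535 of 32608. At 0.01 they were 873 and 258, and with a line left out 1617 to 2234 and 493 to 1047. Library size alone gave 745 lower, so that 80.0% of calls were higher against 66.2% with TMM, 72.6% with upper quartile factors and 53.0% with 12 libraries, and it moved the median log2 fold change of all genes from -0.00 to 0.14. The median was 0.18 with no filter. With the line number as a replicate block, 1714 genes were higher and 721 lower, 3 of the 9 genes were higher, 2 other pathway genes were lower, and Cyp26b1 had an adjusted p of 0.105. In deviations from the group mean, same-numbered lines correlated at 0.024, -0.116 and 0.0423, and lines of different number at -0.244 to 0.231. The numbers were not taken as pairs. Deviations from a mean of 3 lines depend on each other, so these values cannot settle whether lines share an origin.

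Depth limits the EPS levels of Stra6 and Cyp26a1, which rest on 11 reads each. Their counting intervals leave out the spread between lines. With lengths of the longest transcript in place of all exons, the TPS order from place 6 became Stra6, Rdh10 and Cyp26a1.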

Other observations

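The DR5 search described for Cyp26a1 was extended to all genes with a promoter window, after the value of Cyp26a1 had been seen, and is given as a description with no test. Of 9 tested genes with such a repeat 5 rose in TPS lines and 2 fell, and without Cyp26a1, whose value prompted the search, 4 of 8 rose and 2 fell. Of 12076 tested genes with a window 14.3% were higher and 7.98% lower. The higher genes were Cyp26a1, Rarb, Ppbp, Prokr2 and Tnfsf13b, and the lower genes were Blvrb and Cfap45. Rarb, the receptor gene with 0 counts in every EPS library, held the repeat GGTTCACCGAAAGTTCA on its own strand at chr14:16575513-16575529 of GRCm38.p6, 37 to 53 bases before the RefSeq start. Both hexamers of the Rarb repeat, GGTTCA and AGTTCA, were among those searched, and they were chosen with values of these data known. Rarb is therefore not an independent case in the counts above, including the count without Cyp26a1. The numbers are small, and whether the repeats are bound in these cells was not tested.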
